A study of Homo sapiens with 12 samples.

Results

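The prostaglandin genes described here are 10 of the 21508 gene identifiers listed in these files: PTGS2, PTGS1, PTGES, PTGES2, PTGES3, PTGER3, PTGER4, HPGD, PTGR1 and PTGDS, each taken by its Entrez Gene ID. They were chosen by measured values, the PTGS2 levels in 1-AKP and DMSO, because PTGS2 was higher in 1-AKP. The PTGS2 values in 1-AKP and DMSO are therefore a description and carry no test. Poly(A)-selected RNA was sequenced from EndoC-βH1, a human line of insulin-producing cells derived from fetal pancreas, so every library has the same genotype. Each of 4 groups held 3 libraries: TUNAR siRNAs with the GSK3 inhibitor 1-AKP at 5 µM, negative siRNA with 1-AKP at 5 µM, TUNAR siRNAs with DMSO diluted 1:1000, and negative siRNA with DMSO. All cells were transfected by lipid and then kept in 1-AKP or DMSO for 24 hours, and TUNAR is a long noncoding RNA. Replicates 1 and 2 of each group were at passage 74 and replicate 3 at passage 75. The labels do not say that replicates were separate experiments, so the p-values below cover the spread among these libraries, which may be technical.

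Prostaglandins are made from arachidonic acid, which phospholipases cut from membrane lipids. The cyclooxygenases PTGS1 and PTGS2 turn it into prostaglandin H, and terminal synthases such as PTGES, PTGES2 and PTGES3 convert that into prostaglandin E, which acts on the EP receptors, among them PTGER3 and PTGER4, until HPGD and PTGR1 inactivate it. PTGS2 is the inducible cyclooxygenase in most tissues, and pancreatic islets are known for carrying it without a stimulus. PTGER3 couples to inhibitory G proteins and is the EP receptor through which prostaglandin E dampens insulin secretion.

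The promoter of PTGS2 is shown because its RNA differed most between treatments among the members, and those of PTGS1 because the other cyclooxygenase was almost silent in the same cells. Each stretch holds the 250 bases before a RefSeq start in GRCh38.p14, written 5′ to 3′ on the strand of the gene. Capitals mark matches on either strand to TATAAA (the core box near many starts), CGTCA (half-site of the cyclic AMP response element), TTNCGCAA (C/EBP) and an NF-kappaB motif, GGG and CCC with any 4 bases between.
PTGS2, chr1:186680424-186680673, minus strand: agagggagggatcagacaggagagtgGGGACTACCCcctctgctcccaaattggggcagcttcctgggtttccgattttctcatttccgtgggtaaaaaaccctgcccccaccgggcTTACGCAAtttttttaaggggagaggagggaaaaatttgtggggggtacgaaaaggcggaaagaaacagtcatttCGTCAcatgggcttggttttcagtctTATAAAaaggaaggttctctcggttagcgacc
PTGS1, upstream start, chr9:122370283-122370532, plus strand: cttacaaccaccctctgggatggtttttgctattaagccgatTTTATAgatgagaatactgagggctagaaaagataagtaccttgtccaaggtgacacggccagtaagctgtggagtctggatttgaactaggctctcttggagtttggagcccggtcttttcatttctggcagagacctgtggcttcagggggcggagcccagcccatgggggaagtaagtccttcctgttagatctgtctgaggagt
PTGS1, downstream start, chr9:122375052-122375301, plus strand: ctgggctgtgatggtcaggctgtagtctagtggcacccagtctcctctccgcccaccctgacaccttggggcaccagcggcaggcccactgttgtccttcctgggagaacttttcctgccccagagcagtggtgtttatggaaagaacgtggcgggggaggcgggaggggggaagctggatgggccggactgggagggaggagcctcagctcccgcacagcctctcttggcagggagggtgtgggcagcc
The PTGS2 stretch held 1 match to each of these motifs: TATAAA began 32 bases before the start, CGTCA 58, TTNCGCAA 133 and the NF-kappaB motif 224. Of the 35116 promoter stretches of this length, TTNCGCAA occurred in 0.752%, TATAAA in 10.7%, the NF-kappaB motif in 16.1% and CGTCA in 21.2%. The upstream PTGS1 stretch held a TATAAA match on the opposite strand and a GGGCGG (GC box) match. The downstream one held none of the motifs searched but GGGCGG, which 42.6% of stretches hold and PTGS2 lacks. No TCF/LEF core (CTTTG followed by AT, TT, AA or TA) lay in the PTGS2 stretch, and 4199 of the 35116 stretches held at least 1. CCAAT and the E-box CANNTG were also searched, occurred in 32.0% and 61.8% of stretches, and each had a match in PTGS2, where the E-box overlaps CGTCA. RefSeq promoter entries were matched for 9 of the 10 members, with 13 starts. TTNCGCAA was found at the PTGS2 start and at none of the other 12, CGTCA also at a start of PTGES3 and of HPGD, and a TCF/LEF core at the start of PTGES. The NF-kappaB motif was also found at starts of HPGD, PTGER4, PTGES2, PTGES3 and PTGDS. A match is a string of letters, and binding was not measured.

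Levels are given in expected counts (estimated reads per gene), in FPKM (fragments scaled by transcript length and depth, used to compare genes) and in CPM (counts scaled by library depth and TMM factors, used to compare libraries). Library depth ran over 15653786 to 15986834 expected counts, and a filter on low counts left 15990 genes to test. A difference was called when the adjusted p of edgeR's quasi-likelihood test over all those genes was below 0.05. TUNAR stood at 6.95 to 13.6 CPM with TUNAR siRNAs and 27.9 to 30.9 CPM with negative siRNA in 1-AKP, and at 3.83 to 8.08 CPM against 14.4 to 19.9 CPM in DMSO. The TUNAR log2 fold changes of -1.53 and -1.44 had adjusted p-values of 0.159 and 0.248 in edgeR, or 0.000674 and 0.00248 with the replicate number as a block. Replicate 1 stood apart from replicates 2 and 3 in every group on the leading principal components, and results on the members are given without it where that changes a call. The 8 beta-cell markers summed to 21560 to 26340 CPM per library. Summed markers of macrophages and blood reached 40.8 to 69.9 CPM, of endothelium 2.53 to 4.14 CPM and of fibroblasts 2.79 to 7.37 CPM. Those of duct and acinar cells reached 72.0 to 96.1 CPM, of other islet cells 4.31 to 34.7 CPM and of cycling cells 1311 to 2067 CPM. The ranges of these sums in 1-AKP and DMSO overlapped for each list. Of the single beta-cell markers, NKX6-1 fell by 0.48 on the log2 scale with 1-AKP with TUNAR siRNAs (adjusted p = 0.00254 in edgeR) and by 0.52 with negative siRNA (adjusted p = 0.00159 in edgeR). IAPP had a log2 fold change of -0.80 with TUNAR siRNAs (adjusted p = 0.0529 in edgeR) and fell by 0.80 with negative siRNA (adjusted p = 0.0494 in edgeR). With the replicate block edgeR called 27.1% of all genes between 1-AKP and DMSO with TUNAR siRNAs and 26.8% with negative siRNA. Among the markers it called IAPP, PDX1, NKX6-1, MAFA and the acinar marker CPA1 lower, and the macrophage marker CD68 higher, with either siRNA. With negative siRNA only, it also called CD14 and the cycling markers CCNB1 and CDK1 higher. With TUNAR siRNAs it called 1 of the cycling markers TOP2A and CCNB1 higher and the other lower. The replicate numbers were not taken to pair the samples in these comparisons. Between TUNAR and negative siRNAs the block called IAPP, PDX1, NKX6-1 and CD68 lower and the cycling marker MKI67 higher with TUNAR siRNAs in either treatment. In DMSO it also called TOP2A and the duct marker KRT19 higher. That fit called 2.77% of all genes in 1-AKP and 3.05% in DMSO, and no marker was called there without the block. What cell identity or other cell types contribute to the members was not tested.

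PTGS2 (Entrez Gene 5743, chromosome 1) was the only member whose 1-AKP and DMSO libraries were far apart, and its RNA in 1-AKP was 236.5% of that in DMSO with TUNAR siRNAs and 231% with negative siRNA. It had 3685, 3676 and 3725 expected counts with TUNAR siRNAs and 1-AKP, against 1452, 1549 and 1761 with TUNAR siRNAs and DMSO. In the negative siRNA groups it had 3850, 4136 and 3951 expected counts in 1-AKP, against 1480, 1874 and 1883 in DMSO. All 6 libraries in 1-AKP lay above all 6 in DMSO, with 3676 expected counts as the lowest in 1-AKP and 1883 as the highest in DMSO. In bulk RNA, more cells that express a gene and more of its RNA per cell cannot be told apart. The PTGS2 mean was 235 ± 2.28 CPM in 1-AKP and 99.5 ± 9.81 CPM in DMSO with TUNAR siRNAs (SD, n = 3 each), a log2 difference of 1.24. With negative siRNA the mean was 252 ± 8.70 CPM in 1-AKP and 109 ± 14.3 CPM in DMSO (SD, n = 3 each), a log2 difference of 1.21. Among the 15990 genes tested these log2 differences placed PTGS2 at rank 32 with TUNAR siRNAs and rank 35 with negative siRNA. Among the 6915 genes whose mean log2 CPM was 5 or more, PTGS2 was at rank 3 with either siRNA. The replicates lay closer together in 1-AKP with TUNAR siRNAs, at 51.9, 50.8 and 51.8 FPKM, than in any other group. Without the 4 libraries of replicate 1 the log2 differences were 1.18 with TUNAR siRNAs and 1.13 with negative siRNA. The lowest PTGS2 library of each DMSO group was replicate 1, and replicate 1 did not differ by the test from replicates 2 and 3 over all groups, with a log2 difference of -0.13 (SE 0.0555, adjusted p = 0.11, edgeR with the replicate number as a block).

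**Figure D1:**
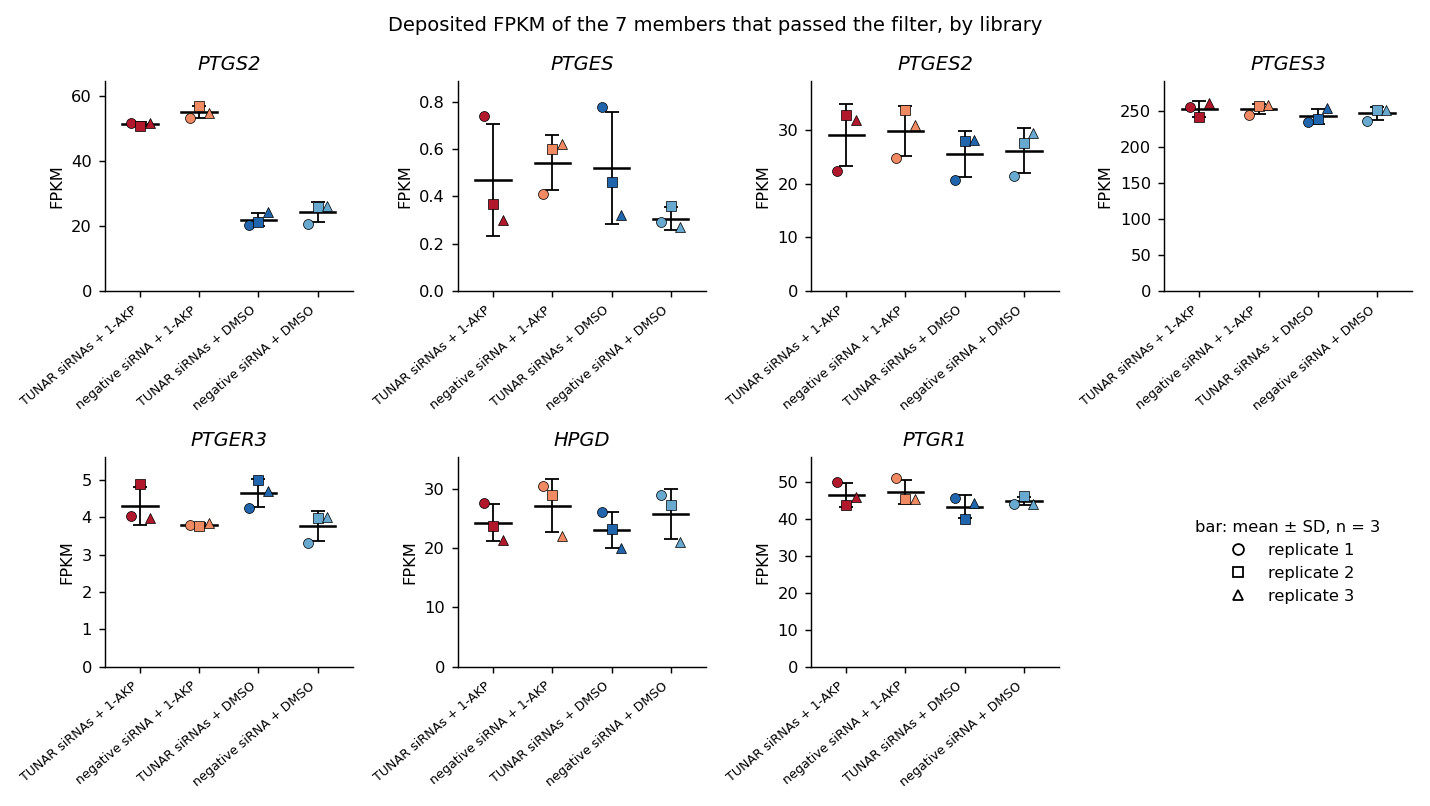
FPKM (vertical axes, each from 0) of the 7 members that passed the filter in the 12 libraries; symbols mark replicate numbers, bars the mean ± SD of 3 libraries. PTGS2 stands at 50.8 to 57.0 FPKM in the 6 libraries with 1-AKP and at 20.3 to 26.2 FPKM in the 6 with DMSO, while for the other members the 6 and 6 libraries overlap.

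TUNAR siRNAs left PTGS2 slightly lower in every same-numbered pair, and the difference did not pass the test in either treatment. In 1-AKP it stood at 237, 233 and 236 CPM with TUNAR siRNAs, against 243, 261 and 251 CPM with negative siRNA, and these groups did not overlap. The log2 fold change was -0.10 (SE 0.0851, adjusted p = 1 by edgeR's quasi-likelihood test, exact two-sided permutation p = 0.1, the smallest that 3 against 3 can give). In DMSO it stood at 91.2, 96.9 and 110 CPM with TUNAR siRNAs, against 92.4, 117 and 118 CPM with negative siRNA, where the groups overlapped. The log2 fold change was -0.13 (SE 0.0877, adjusted p = 1 by edgeR, exact two-sided permutation p = 0.3). Blocking on replicate number gave adjusted p-values of 0.637 in 1-AKP and 0.554 in DMSO in edgeR. Without the 4 libraries of replicate 1 the blocked log2 fold change in DMSO was -0.18 with an adjusted p of 0.0314 in edgeR, and in 1-AKP it was -0.12 with an adjusted p of 0.0837. Without those libraries and without the block the adjusted p-values in edgeR were 0.263 in DMSO and 0.477 in 1-AKP. The share of all genes called in the blocked fit without replicate 1 was not counted, so nothing is read from its call. The 1-AKP effect on PTGS2 with TUNAR siRNAs minus that with negative siRNA was 0.03 on the log2 scale (SE 0.122, 95% interval -0.248 to 0.316, adjusted p = 1 in edgeR).

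Of the other 9 members 6 passed the filter on low counts, and without the replicate block 0 of them were called with 1-AKP under either siRNA. Over all genes tested, 7.51% were called between 1-AKP and DMSO with TUNAR siRNAs and 7.3% with negative siRNA. A count of 0 among 6 genes lies near these shares and does not show that the members were unchanged. None of the 6 had an unadjusted p below 0.05 in edgeR in either comparison, which 21.4% of all genes had with TUNAR siRNAs and 20.9% with negative siRNA. DESeq2, which called 8.62% and 8.42% of all genes, called 0 of the 6. Their median log2 fold change was 0.08 with TUNAR siRNAs and 0.10 with negative siRNA, against -0.0007 and -0.0035 over all genes tested. PTGES2, PTGES3, HPGD and PTGR1 were higher in 1-AKP at each replicate number with either siRNA, and PTGES and PTGER3 only with negative siRNA. Without the libraries of replicate 1, PTGES2 was called with TUNAR siRNAs (adjusted p = 0.0235 in edgeR), in a fit that called 17.3% of all genes. Between TUNAR and negative siRNAs, without pairing, 0 of the 7 tested members, PTGS2 included, were called in 1-AKP and 0 in DMSO, where 0% and 0.0125% of all genes were. At an unadjusted p below 0.05 edgeR picked none of them in 1-AKP and only PTGER3 in DMSO, against 4.65% and 4.85% of all genes. DESeq2 called 0 of the 7 in either, and 0.0563% of all genes in 1-AKP and 0.119% in DMSO. The unpaired edgeR fit did not call TUNAR itself either (adjusted p = 0.159 in 1-AKP and 0.248 in DMSO). With the replicate number as a block, edgeR called 0 of the 7 in 1-AKP and only PTGER3 in DMSO. That fit called 2.77% of all genes in 1-AKP and 3.05% in DMSO. The difference of the 1-AKP effects between the siRNAs was called for 0 of the 7 members by edgeR or DESeq2, with 0% of all genes called by edgeR, and none of the 7 had an unadjusted p below 0.05 in edgeR, which 1.06% of all genes had.

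**Figure D2:**
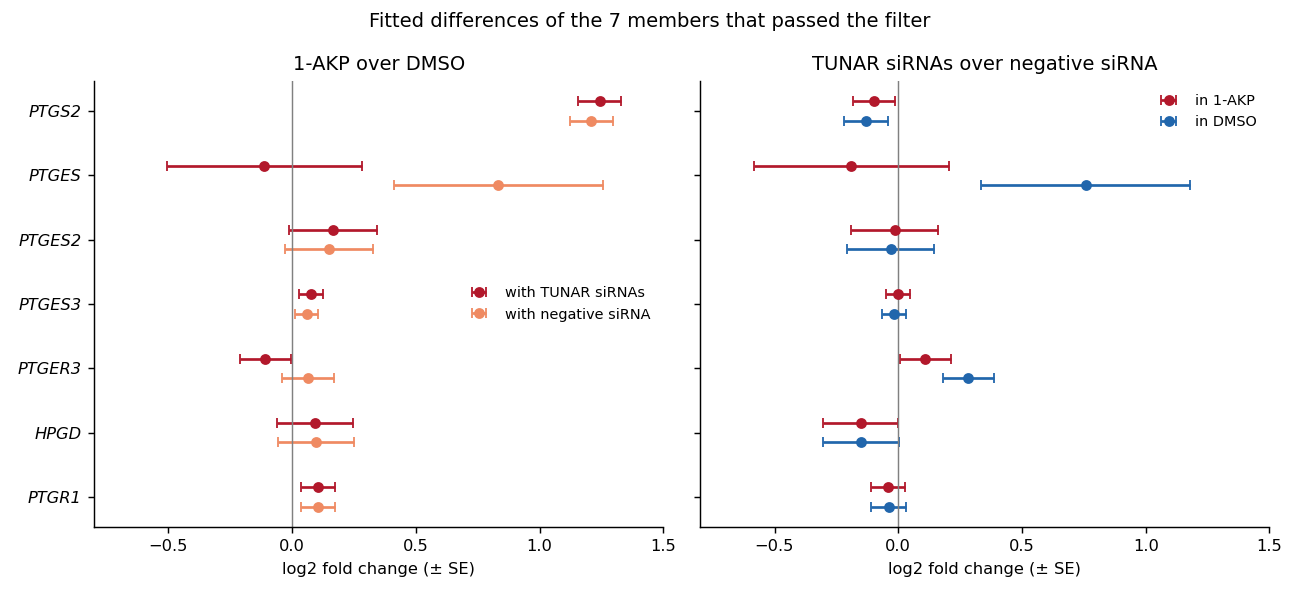
Log2 fold changes (horizontal axes, points) with their standard errors (bars) from edgeR for the 7 members that passed the filter, 1-AKP over DMSO on the left and TUNAR over negative siRNA on the right. PTGS2 stands at 1.24 and 1.21 with 1-AKP, and the other members but PTGES lie within 0.2 of 0 on the left.

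PTGS1, PTGER4 and PTGDS were at or near the limit of detection. PTGS1, the constitutive cyclooxygenase of most tissues, had 10 expected counts in all 12 libraries together, spread over 5 of them, with at most 3 in any. PTGDS, a prostaglandin D synthase, had 2 expected counts, 1 each in replicate 2 of TUNAR siRNAs with DMSO and replicate 1 of negative siRNA with DMSO. PTGER4 (overlapped by TTC33 in the annotation), the EP4 receptor that couples to the stimulatory G protein, had 11.06 expected counts, with its highest value of 4 in replicate 2 of negative siRNA with DMSO. In these libraries a count of 0 allows up to 3 counts, or 0.188 to 0.192 CPM, counting error only, so changes of these 3 members were not detectable at this depth.

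Among the terminal synthases, PTGES3 was abundant, PTGES2 intermediate and PTGES scarce. In the fit of all 12 libraries without the replicate block none passed the test with 1-AKP. Blocked calls of PTGES2 and PTGES3 are given in the part on processing. PTGES, the inducible microsomal prostaglandin E synthase, had 20.7, 10.5 and 8.41 expected counts with TUNAR siRNAs and 1-AKP, against 21.9, 13.0 and 9.07 with TUNAR siRNAs and DMSO. With negative siRNA it had 11.5, 16.9 and 17.5 expected counts in 1-AKP, against 8.16, 10.1 and 7.61 in DMSO. The groups overlapped with TUNAR siRNAs and did not with negative siRNA. Its 1-AKP log2 fold change was -0.11 with TUNAR siRNAs (SE 0.394, adjusted p = 0.919 in edgeR) and 0.83 with negative siRNA (SE 0.421, adjusted p = 0.288 in edgeR). The difference of these effects, -0.95 (SE 0.577, adjusted p = 1 in edgeR), did not pass either, and with 7.61 to 21.9 counts per library its 95% interval ran from -2.28 to 0.39. PTGES counts were fractional in all 12 libraries, so part of its reads were assigned by estimate. Between siRNAs, the PTGES log2 fold change was -0.19 in 1-AKP (SE 0.392) and 0.76 in DMSO (SE 0.423), each with an adjusted p of 1 in edgeR. Without the 4 libraries of replicate 1 these log2 fold changes were -0.83 and 0.29.

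PTGES2, a membrane-associated prostaglandin E synthase, followed the replicate number more than the treatment. It had 43.9, 65.0 and 62.1 CPM with TUNAR siRNAs and 1-AKP, against 41.5, 55.4 and 55.7 CPM with TUNAR siRNAs and DMSO. Negative siRNA libraries had 48.0, 63.0 and 61.8 CPM in 1-AKP, against 43.0, 54.7 and 58.1 CPM in DMSO. The libraries in 1-AKP were the higher ones at each replicate number, and replicate 1 was the lowest library of all 4 groups, so the groups overlapped. Without pairing, the log2 fold change was 0.16 with TUNAR siRNAs (SE 0.177, adjusted p = 0.671 in edgeR) and 0.15 with negative siRNA (SE 0.177, adjusted p = 0.715 in edgeR). Without the 4 libraries of replicate 1 PTGES2 was called with TUNAR siRNAs, at 0.19 (adjusted p = 0.0235 in edgeR), and was not with negative siRNA, at 0.14 (adjusted p = 0.101 in edgeR). Without those libraries 17.3% of all genes were called with TUNAR siRNAs and 16% with negative siRNA. PTGES2 was lower in replicate 1 than in replicates 2 and 3 by a log2 difference of -0.43 (SE 0.037, adjusted p = 5.72e-12, edgeR with the replicate number as a block). Between replicate 1 and the others 41.5% of all genes were called in that fit.

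PTGES3, a cytosolic prostaglandin E synthase that is also the p23 cochaperone of HSP90, averaged 522 ± 20.1 CPM with TUNAR siRNAs and 1-AKP and 495 ± 21.5 CPM with TUNAR siRNAs and DMSO (SD, n = 3 each). Its mean with negative siRNA was 522 ± 16.7 CPM in 1-AKP and 501 ± 19.3 CPM in DMSO (SD, n = 3 each). The groups overlapped with either siRNA, and the log2 fold changes of 0.08 and 0.06 had adjusted p-values of 0.405 and 0.554 in edgeR. Its counts were fractional in every library, and the annotation names 5 PTGES3 pseudogenes with which reads could be split. Between siRNAs, the log2 fold changes of PTGES2 and PTGES3 lay between -0.03 and 0.00 in either treatment, with adjusted p = 1 in edgeR for each.

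PTGER3, the inhibitory EP3 receptor, had the lowest p of the members between TUNAR and negative siRNAs in DMSO, and it passed the threshold there only in the edgeR fit with the replicate number as a block. It had 21.5, 27.5 and 25.2 CPM with TUNAR siRNAs and DMSO, against 18.9, 21.0 and 21.1 CPM with negative siRNA and DMSO. Every library with TUNAR siRNAs lay above every library with negative siRNA there, the lowest of the first at 21.5 CPM and the highest of the second at 21.1 CPM. The log2 fold change was 0.28 (SE 0.103) with an unadjusted p of 0.017 and an adjusted p of 0.931 in edgeR, and the exact two-sided permutation p was 0.1, the smallest possible. With the replicate number as a block the log2 fold change was 0.28 (SE 0.0685) and the adjusted p 0.0138 in edgeR, in a fit that called 3.05% of all genes. In the blocked edgeR fit the call held without replicate 1 (0.33, adjusted p = 0.0193). It was lost without replicate 2 (0.23, adjusted p = 0.287 in edgeR) and without replicate 3 (0.30, adjusted p = 0.0979 in edgeR). Without replicate 1 and without the block PTGER3 was not called (0.33, adjusted p = 0.158 in edgeR). In 1-AKP it had 21.1, 24.8 and 22.9 CPM with TUNAR siRNAs, against 19.3, 21.6 and 22.9 CPM with negative siRNA. These groups overlapped, and the log2 fold change of 0.11 (SE 0.103) had an adjusted p of 1 in edgeR, or 0.532 with the block, where 2.77% of all genes were called. The 1-AKP effect on PTGER3 was -0.11 with TUNAR siRNAs (SE 0.103, adjusted p = 0.615 in edgeR) and 0.06 with negative siRNA (SE 0.104, adjusted p = 0.799 in edgeR). The difference between these effects was -0.17 (SE 0.146, adjusted p = 1 in edgeR). PTGER3 was lower in replicate 1 than in the others by a log2 difference of -0.21 (SE 0.0523, adjusted p = 0.0012, edgeR with the block). In the RefSeq annotation PTGER3 overlaps ZRANB2-AS1, and the labelled library preparation does not mark strand, so reads of the shared stretch cannot be told apart.

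HPGD, which oxidises prostaglandin E and begins its breakdown, was lower with TUNAR siRNAs at every replicate number in both treatments, by an amount smaller than its spread between replicates. It had 84.8, 73.2 and 65.8 CPM with TUNAR siRNAs and 1-AKP, against 92.8, 88.2 and 67.8 CPM with negative siRNA and 1-AKP. In DMSO it had 78.6, 70.6 and 60.7 CPM with TUNAR siRNAs, against 87.1, 82.6 and 63.2 CPM with negative siRNA. The groups overlapped in both treatments, since replicate 3 was the lowest library of all 4 groups. The log2 fold change was -0.15 in 1-AKP (SE 0.153) and -0.15 in DMSO (SE 0.154), each with an adjusted p of 1 in edgeR. With libraries left out it ran from -0.27 to -0.06 in 1-AKP and from -0.27 to -0.05 in DMSO. With the replicate number as a block both were again -0.15, with adjusted p-values of 0.0545 in 1-AKP and 0.0619 in DMSO in edgeR, just above the threshold. HPGD was lower in replicate 3, at passage 75, than in replicates 1 and 2 by a log2 difference of -0.35 (SE 0.0338, adjusted p = 5.92e-10, edgeR with the block), where 24.4% of all genes were called. It was higher in replicate 1 than in the others by 0.27 (SE 0.0325, adjusted p = 1.48e-08, edgeR with the block). Passage and replicate 3 cannot be told apart. With 1-AKP, HPGD had log2 fold changes of 0.09 with TUNAR siRNAs (adjusted p = 0.81 in edgeR) and 0.09 with negative siRNA (adjusted p = 0.8 in edgeR).

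**Figure D3:**
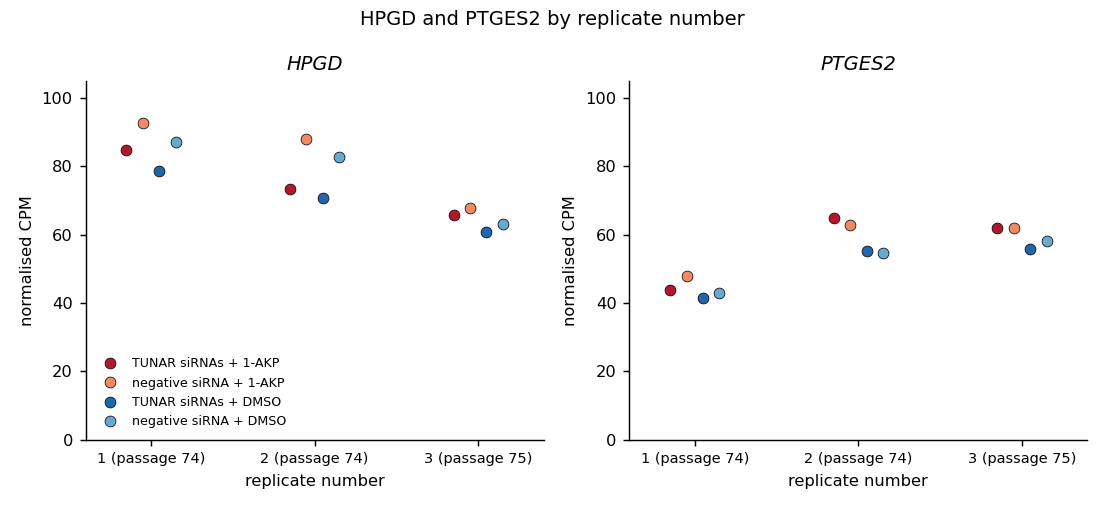
Normalised CPM (vertical axes) of HPGD on the left and PTGES2 on the right by replicate number (horizontal axes), 1 point per library, coloured by group. HPGD is lowest in replicate 3, at 60.7 to 67.8 CPM, and PTGES2 is lowest in replicate 1, at 41.5 to 48.0 CPM.

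PTGR1, which reduces the oxidised product of HPGD, had 61.5, 53.9 and 56.9 CPM with TUNAR siRNAs and 1-AKP, against 56.4, 49.2 and 54.8 CPM with TUNAR siRNAs and DMSO. With negative siRNA it had 63.4, 56.9 and 57.0 CPM in 1-AKP, against 54.6, 56.5 and 53.7 CPM in DMSO. The groups overlapped with TUNAR siRNAs, and with negative siRNA the lowest library in 1-AKP, 56.9 CPM, lay just above the highest in DMSO, 56.5 CPM. The log2 fold changes were 0.10 (SE 0.0693, adjusted p = 0.444 in edgeR) and 0.11 (SE 0.0691, adjusted p = 0.441 in edgeR). With TUNAR against negative siRNA PTGR1 had log2 fold changes of -0.04 in 1-AKP and -0.04 in DMSO, each with an adjusted p of 1 in edgeR. PTGR1 overlaps ZNF483 in the annotation.

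Per length, PTGES3 was the most abundant member in every group, at 252 ± 10.6 FPKM with TUNAR siRNAs and 1-AKP, 253 ± 7.23 FPKM with negative siRNA and 1-AKP, 242 ± 9.96 FPKM with TUNAR siRNAs and DMSO, and 246 ± 8.75 FPKM with negative siRNA and DMSO (SD, n = 3 each). PTGS2 was in the next place in 1-AKP, at 51.5 ± 0.600 FPKM with TUNAR siRNAs and 55.1 ± 1.78 FPKM with negative siRNA, above PTGR1 at 46.6 ± 3.16 and 47.4 ± 3.31 FPKM. In DMSO PTGS2, at 22.0 ± 2.10 FPKM with TUNAR siRNAs and 24.2 ± 3.09 FPKM with negative siRNA, stood below PTGR1, at 43.4 ± 3.04 and 44.9 ± 1.14 FPKM. There PTGS2 lay within the replicate spread of HPGD, at 23.1 ± 3.09 and 25.7 ± 4.23 FPKM, and of PTGES2, at 25.6 ± 4.24 and 26.2 ± 4.17 FPKM. HPGD and PTGES2 did not separate beyond their spread in 1-AKP either, at 24.3 ± 3.12 and 29.1 ± 5.81 FPKM with TUNAR siRNAs. PTGER3 averaged 3.78 to 4.65 FPKM over the 4 groups and PTGES 0.307 to 0.543 FPKM. Among all genes listed in a group, PTGS2 took rank 1406 by mean FPKM with TUNAR siRNAs and 1-AKP and rank 1304 with negative siRNA and 1-AKP, against 3756 with TUNAR siRNAs and DMSO and 3416 with negative siRNA and DMSO.

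The ratio of PTGS2 FPKM, the forming cyclooxygenase, to HPGD FPKM, the degrading enzyme, was 1.88, 2.13 and 2.41 with TUNAR siRNAs and 1-AKP, against 0.776, 0.923 and 1.22 with TUNAR siRNAs and DMSO. For negative siRNA the ratio was 1.76, 1.97 and 2.49 in 1-AKP, against 0.713, 0.948 and 1.25 in DMSO. The libraries in 1-AKP lay above all libraries in DMSO, and replicate 3 had the highest ratio of each group. This follows from the PTGS2 values that chose the genes and is given as a description.

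On one side of PTGS2 the neighbouring genes PACERR and PLA2G4A also had higher values in every library with 1-AKP than in any with DMSO. Over all genes tested the 6 and 6 libraries did not overlap, in either direction, for 10.5%. In the order of RefSeq genes on chromosome 1, PACERR, a noncoding RNA on the opposite strand whose annotation overlaps the promoter stretch shown above, follows PTGS2, and PLA2G4A comes after it. PLA2G4A is the cytosolic phospholipase that releases arachidonic acid, the substrate of PTGS2. PLA2G4A had 17.9, 16.1 and 17.1 CPM with TUNAR siRNAs and 1-AKP, against 8.17, 10.6 and 10.2 CPM with TUNAR siRNAs and DMSO. With negative siRNA PLA2G4A had 18.9, 23.1 and 18.1 CPM in 1-AKP, against 11.1, 12.2 and 12.01 CPM in DMSO. Every library in 1-AKP lay above every library in DMSO. PLA2G4A rose by a log2 fold change of 0.82 with TUNAR siRNAs (SE 0.118, adjusted p = 0.00172 in edgeR) and of 0.76 with negative siRNA (SE 0.115, adjusted p = 0.00229 in edgeR), and both calls held in each of the 12 fits that left out 1 library. They were lost without all 4 libraries of replicate 2 (0.93, adjusted p = 0.0696, and 0.67, adjusted p = 0.152, in edgeR) and without those of replicate 3 (0.86, adjusted p = 0.0848, and 0.85, adjusted p = 0.0846, in edgeR).

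PACERR, named here after its values were seen, did not pass the filter and was not tested. It had 9, 8 and 7 expected counts with TUNAR siRNAs and 1-AKP, against 3, 4 and 5 with TUNAR siRNAs and DMSO. With negative siRNA it had 9, 8 and 7 expected counts in 1-AKP, against 6, 5 and 5 in DMSO. The 6 libraries in 1-AKP, 48 counts in all, each lay above the 6 in DMSO, 28 in all. The library preparation as labelled does not mark strand, so PACERR reads and PTGS2 reads cannot be told apart where the genes meet. On the other side of PTGS2, the nearest tested genes were ODR4, with log2 fold changes of 0.04 with TUNAR siRNAs (adjusted p = 0.839 in edgeR) and 0.01 with negative siRNA (adjusted p = 0.961 in edgeR), and TPR, with -0.11 (adjusted p = 0.148 in edgeR) and -0.14 (adjusted p = 0.0711 in edgeR). ODR4 and TPR were also named after their values were seen.

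**Figure D4:**
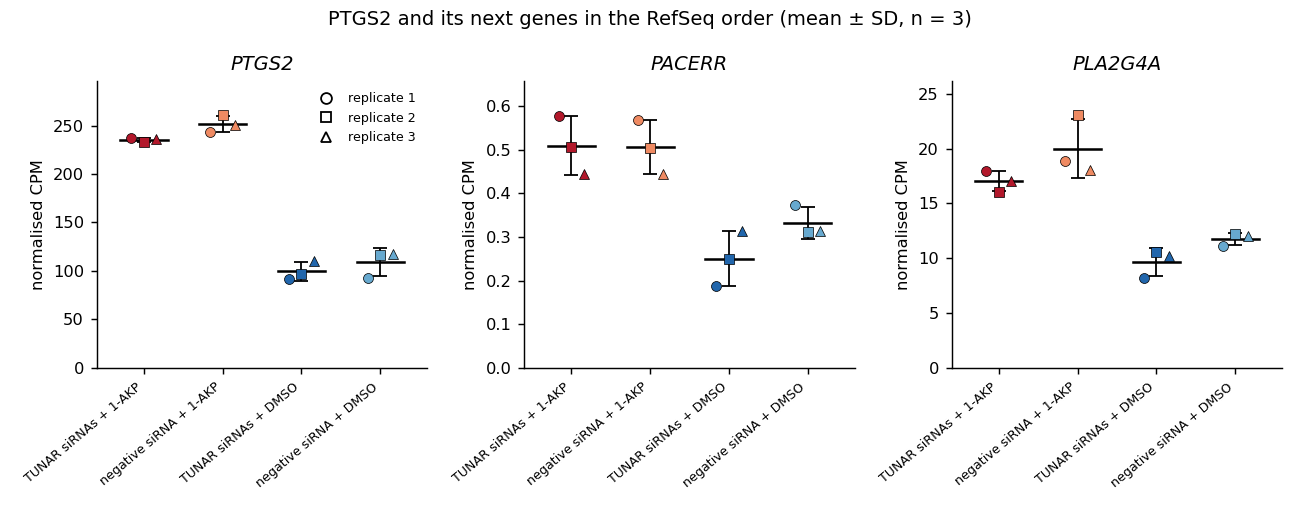
Normalised CPM (vertical axes, each from 0) of PTGS2, PACERR and PLA2G4A in the 12 libraries; symbols mark replicate numbers, bars the mean ± SD of 3 libraries. For each gene all 6 libraries with 1-AKP lie above all 6 with DMSO, and 10.5% of all genes tested did not overlap in either direction. PACERR rests on 3 to 9 counts per library.

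Of 8 further lists around the pathway, with 101 genes tested, 11 genes were called between 1-AKP and DMSO with TUNAR siRNAs and 12 with negative siRNA, 13 different genes in all. Over all genes tested, 7.51% and 7.3% were called in the same comparisons. Without the 4 libraries of replicate 1 the counts in the lists were 24 and 23, in fits that called 17.3% of all genes with TUNAR siRNAs and 16% with negative siRNA. Without the libraries of replicate 2 they were 0 and 0, in fits that called 0.149% and 0.181% of all genes. The lists were drawn up with earlier results of these data known. In the arachidonate release list 2 of 16 tested genes rose and 1 fell with either siRNA. The risen genes were PLA2G4A and LPCAT3, an acyltransferase that puts arachidonate back into phospholipids and had the highest FPKM of the list. LPCAT3 rose by 0.26 with TUNAR siRNAs (adjusted p = 0.0216 in edgeR) and by 0.28 with negative siRNA (adjusted p = 0.0168 in edgeR). PLA2G6, the calcium-independent phospholipase, averaged 6.01 ± 0.879 CPM in 1-AKP and 10.1 ± 1.59 CPM in DMSO with TUNAR siRNAs, and 5.78 ± 0.515 CPM in 1-AKP and 11.1 ± 0.822 CPM in DMSO with negative siRNA (SD, n = 3 each). It fell by 0.75 (adjusted p = 0.00781) and by 0.94 (adjusted p = 0.00236) on the log2 scale in edgeR. The median of the list was 0.04 with TUNAR siRNAs and 0.03 with negative siRNA.

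Of 10 tested genes of the other prostanoid synthases, CBR1, a carbonyl reductase that can turn prostaglandin E into F, rose with either siRNA, by 0.23 and 0.23 (adjusted p = 0.0359 with TUNAR siRNAs and 0.0348 with negative siRNA in edgeR). AKR1B1, an aldose reductase with prostaglandin F synthase activity and the most abundant gene of the list at 71.5 FPKM, had log2 fold changes of 0.24 (adjusted p = 0.319) and 0.22 (adjusted p = 0.359) in edgeR. Of 5 tested genes of the other prostanoid receptors, PTGER2, the stimulatory EP2 receptor, had a log2 fold change of 0.45 with TUNAR siRNAs, not past the threshold (SE 0.128, adjusted p = 0.0529 in edgeR), and rose by 0.50 with negative siRNA (SE 0.125, adjusted p = 0.03 in edgeR). PTGDR2, a prostaglandin D receptor with the highest FPKM of that list, 26.1, had log2 fold changes of 0.03 (adjusted p = 0.916) and 0.11 (adjusted p = 0.553) in edgeR. Of 8 tested transport and breakdown genes, PTGR3 (also ZADH2), a prostaglandin reductase, fell by 0.19 with TUNAR siRNAs (adjusted p = 0.0412) and by 0.21 with negative siRNA (adjusted p = 0.0289) in edgeR. HSD17B4, a peroxisomal enzyme and the most abundant there at 43.2 FPKM, had log2 fold changes of -0.08 (adjusted p = 0.36) and -0.03 (adjusted p = 0.822) in edgeR.

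Downstream of the EP receptors, 1 of 22 tested genes rose and 1 fell with either siRNA. ADCY8, a calcium-stimulated adenylyl cyclase, rose by 0.42 with TUNAR siRNAs (adjusted p = 0.015) and by 0.40 with negative siRNA (adjusted p = 0.0205) in edgeR. PRKACB, a catalytic subunit of protein kinase A, fell by 0.41 (adjusted p = 0.000432) and by 0.33 (adjusted p = 0.00188) in edgeR. GNAS, the stimulatory G protein and by far the most abundant gene of that list at 3687 FPKM, had log2 fold changes of -0.20 (adjusted p = 0.425) and -0.14 (adjusted p = 0.614) in edgeR. In the lipoxygenase branch, which uses the same substrate, 1 of 8 tested genes changed. It was ALOX5, the 5-lipoxygenase, which rose by 0.36 with TUNAR siRNAs (adjusted p = 0.015) and by 0.47 with negative siRNA (adjusted p = 0.0037) in edgeR. LTA4H, the leukotriene A hydrolase with the highest FPKM there, had log2 fold changes of -0.01 (adjusted p = 0.962) and -0.02 (adjusted p = 0.908) in edgeR.

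Among 24 tested genes known to act on PTGS2 transcription or RNA decay, 1 rose and 2 fell with either siRNA. ATF4, a stress-response transcription factor and the most abundant of them, rose by 0.18 with TUNAR siRNAs (adjusted p = 0.0199) and by 0.16 with negative siRNA (adjusted p = 0.038) in edgeR. ZFP36L2, which belongs to the family of proteins that bind AU-rich elements and promote RNA decay, fell by 0.29 with either siRNA (adjusted p = 0.0137 and 0.0146 in edgeR). AUH, an enoyl-CoA hydratase that can bind AU-rich RNA, fell by 0.55 with TUNAR siRNAs (adjusted p = 0.0106 in edgeR), and had a log2 fold change of -0.29 with negative siRNA (adjusted p = 0.143 in edgeR). CEBPB, a C/EBP factor, averaged 3.91 ± 0.317 CPM in 1-AKP and 6.37 ± 0.773 CPM in DMSO with TUNAR siRNAs, and 4.03 ± 1.39 CPM in 1-AKP and 6.99 ± 1.14 CPM in DMSO with negative siRNA (SD, n = 3 each). Its log2 fold change was -0.70 with TUNAR siRNAs, not past the threshold (adjusted p = 0.0679 in edgeR), and it fell by 0.79 with negative siRNA (adjusted p = 0.0415 in edgeR). Of 13 genes that serve as a readout of Wnt signalling 9 were tested, and edgeR and DESeq2 each called 0 in either comparison. Over all genes edgeR called 7.51% with TUNAR siRNAs and 7.3% with negative siRNA, and DESeq2 8.62% and 8.42%. A count of 0 among 9 genes lies near these shares and does not show that they were unchanged. In edgeR 0 with TUNAR siRNAs and 1 with negative siRNA had an unadjusted p below 0.05, against 21.4% and 20.9% of all genes. The median log2 fold change of the 9 genes was -0.10 with TUNAR siRNAs and -0.19 with negative siRNA. The most abundant of them, RNF43, a ubiquitin ligase of Wnt receptors, had log2 fold changes of -0.07 (adjusted p = 0.685) and -0.19 (adjusted p = 0.156) in edgeR. Between TUNAR and negative siRNAs edgeR and DESeq2 each called 0 of the 101 genes in either treatment, with 3 at an unadjusted p below 0.05 in 1-AKP and 3 in DMSO in edgeR, against 4.65% and 4.85% of all genes. With the replicate number as a block, edgeR called 2.77% of all genes in 1-AKP and 3.05% in DMSO. Of the 101 genes it called 5 in 1-AKP, where AKR1C1, AKR1C3 (a prostaglandin F synthase) and PRKACB were lower and ADCY1 and CELF2 higher with TUNAR siRNAs. In DMSO it called 6, where AKR1C3 was lower and GSTM2, GNAS, ADCY1, RAPGEF4 and CELF2 were higher. ADCY1, another calcium-stimulated adenylyl cyclase, had the lowest adjusted p of them, with blocked log2 fold changes of 0.20 in 1-AKP (SE 0.0358, adjusted p = 0.000848 in edgeR) and 0.25 in DMSO (SE 0.0352, adjusted p = 2.57e-05 in edgeR).

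In each of the 12 fits that left out 1 library, PLA2G6 and PRKACB were called with either siRNA, as PLA2G4A was. The other calls were lost in some of these fits. With TUNAR siRNAs the highest adjusted p in edgeR was 0.0765 for LPCAT3 (without replicate 3 of TUNAR siRNAs with DMSO), 0.133 for CBR1, 0.147 for PTGR3 and 0.0918 for ATF4 (each without replicate 3 of TUNAR siRNAs with 1-AKP). It was 0.066 for ADCY8 and for ALOX5 (without replicate 2 of TUNAR siRNAs with 1-AKP), and 0.0693 for ZFP36L2 and 0.0529 for AUH (without replicate 2 of TUNAR siRNAs with DMSO). With negative siRNA ALOX5 was called in all 12 fits, and the highest adjusted p in edgeR was 0.0841 for LPCAT3 and 0.173 for ATF4 (without replicate 3 of negative siRNA with 1-AKP). It was 0.115 for CBR1 and 0.153 for CEBPB (without replicate 1 of negative siRNA with DMSO), 0.118 for PTGER2, 0.101 for PTGR3 and 0.0602 for ZFP36L2 (without replicate 3 of negative siRNA with DMSO), and 0.0946 for ADCY8 (without replicate 2 of negative siRNA with 1-AKP). For 12 of the 13 genes the 6 libraries in 1-AKP did not overlap the 6 in DMSO, and PTGER2 was the exception, at 10.8 to 16.3 CPM in 1-AKP and 9.23 to 12.7 CPM in DMSO. Over all genes tested 10.5% did not overlap, and since the 13 genes were taken for this same difference nothing is read from their count.

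**Figure D5:**
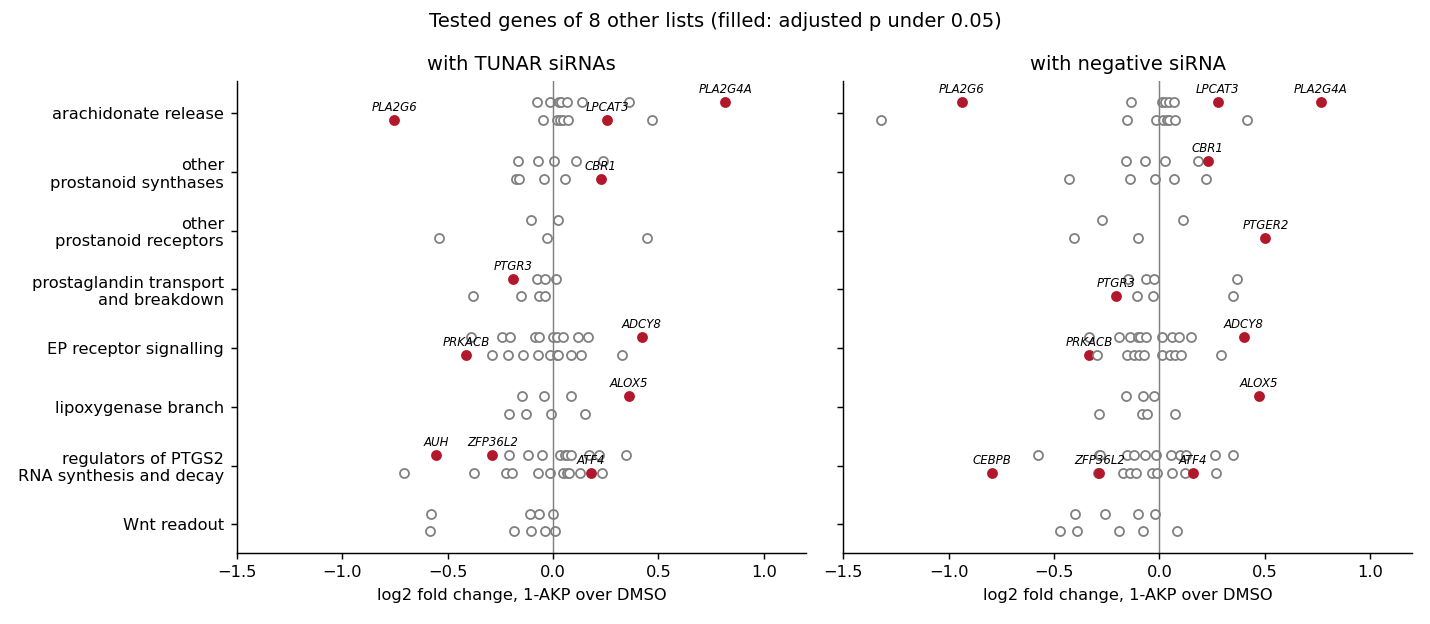
Log2 fold changes of 1-AKP over DMSO (horizontal axes) of the tested genes of 8 lists around the pathway, with TUNAR siRNAs on the left and negative siRNA on the right; filled points passed the threshold and are named. PLA2G4A stands at 0.82 and 0.76 and PLA2G6 at -0.75 and -0.94, and most points lie near 0.

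Among the 13760 genes compared, the levels (log2 CPM) most like those of PTGS2 over the 12 libraries were those of AGPAT5 (Pearson r = 0.994), TALDO1 (0.989), OLA1 (0.986), RPS6 (0.984) and LTAP1 (0.982). The least like were INSR (-0.992), ABTB1 (-0.988) and COQ8A (-0.985). The 12 libraries share the treatment groups, and the r values are a description. AGPAT5, an acyltransferase of phospholipid synthesis, averaged 144 ± 3.86 CPM in 1-AKP and 105.2 ± 3.62 CPM in DMSO with TUNAR siRNAs, and 144 ± 4.89 CPM in 1-AKP and 107 ± 4.38 CPM in DMSO with negative siRNA (SD, n = 3 each). INSR, the insulin receptor, averaged 62.3 ± 1.4 CPM in 1-AKP and 85.5 ± 0.587 CPM in DMSO with TUNAR siRNAs, and 59.3 ± 1.98 CPM in 1-AKP and 83.4 ± 3.22 CPM in DMSO with negative siRNA (SD, n = 3 each). Of the other tested members PTGES was below the level needed for this comparison, and the remaining 5 were far less like PTGS2, from 0.695 for PTGES3, 0.589 for PTGR1 and 0.440 for PTGES2 to 0.187 for HPGD and -0.07 for PTGER3.

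The deposited files also give for each library an average transcript length per gene, which moves with the share of its isoforms. For PTGES2, with 3 annotated transcripts, it was 1956, 1961 and 1941 bases with TUNAR siRNAs and 1-AKP, against 2031, 1993 and 1989 bases with TUNAR siRNAs and DMSO. For negative siRNA the length was 1933, 1856 and 1992 bases in 1-AKP, against 2034, 2008 and 1990 bases in DMSO. Replicate 3 of negative siRNA with 1-AKP lay among the DMSO libraries, and the other 5 in 1-AKP lay below all of them. The mean was 67.5 bases shorter in 1-AKP by the stratified exact two-sided permutation test (p = 0.01, adjusted p = 0.1 over 10 such tests), which does not pass the correction. The comparison was added after the lengths were seen. PTGS2 and PTGES had a single length in all libraries.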

How the data were processed

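The authors deposited, per library, RSEM-style tables with an expected count, an FPKM value and a length per gene and its transcripts. Per the file headers the expected counts are estimated and 35.3 to 36.0% of the counts above 0 were not whole within 0.001, so they were rounded before fitting. The deposited FPKM values were used as given, only to compare genes and in the limma alternatives. The submitters' processing notes name RSEM, Bowtie, BWA and GRCh37 (hg19), with versions and annotation not given in the sources used here. The files list genes by Entrez Gene ID, of which 21386 of 21508 matched a RefSeq symbol. A gene missing from a library was set to 0.

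The members and gene lists were chosen with earlier results of these data known. Genes were named if they were members, were called in a list, led a list by FPKM or were most or least like PTGS2, and exceptions are stated beside them. Genes without enough counts were removed (minimum count 10, minimum total 15), which kept 99.9% of the counts and 7 of the 10 members. A single edgeR 4.0.16 quasi-likelihood model (R 4.3.3, robust, TMM) with 4 group means over 12 libraries gave log2 fold changes, and p-values were adjusted by Benjamini-Hochberg over 15990 genes. Levels of single members were also compared by exact permutation tests (Python 3.11.15). The unblocked edgeR fit was run on simulated counts that held no replicate effect, so that run does not bear on the blocked fits. No pair of libraries was a duplicate, with chi-square per degree of freedom of at least 2.268. Limits for counts of 0 use 3 counts and cover counting error only.

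The replicate numbers come from the sample titles. Deviations of same-numbered libraries correlated in TUNAR against negative siRNA, at 0.416, 0.162 and 0.287 in 1-AKP and at 0.376, 0.178 and 0.217 in DMSO, each over 0.1, so the numbers were taken to pair the samples there. In 1-AKP against DMSO replicate 2 gave 0.0634 with TUNAR siRNAs and 0.0871 with negative siRNA, under that limit. Alternatives were the replicate block, passage as a covariate or passage 74 alone, leaving out each library, DESeq2 1.42.0, library size scaling, no filter, and limma 3.58.1 on log2(FPKM + 0.1) and log2(FPKM + 1). Leaving out all libraries of a replicate number, contrasts of replicate numbers, transcript lengths and the genes beside PTGS2 were added after seeing the data.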

Additional observations from a re-analysis of the deposited data

How the results depend on the processing

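With the replicate block, edgeR called 2 of the 6 tested members with 1-AKP in TUNAR siRNAs (PTGES2 at an adjusted p of 0.0101 and PTGES3 at 0.0493) and 1 in negative siRNA (PTGES2 at 0.0178), where the block called 27.1% and 26.8% of all genes. The blocked PTGES2 calls were lost without replicate 2 (adjusted p of 0.18 with TUNAR siRNAs and 0.181 with negative siRNA) and without replicate 3 (0.0909 and 0.0504). In these comparisons the numbers were not taken to pair the samples. With the replicate block, 1 of 7 members was called between siRNAs in DMSO (PTGER3), and the block changed no other call of a member. With single libraries or a replicate number left out, 0 to 1 members were called with 1-AKP in either siRNA and 0 to 2 between siRNAs in DMSO. The other pathway genes called numbered 32 with TUNAR siRNAs and 32 with negative siRNA under the replicate block, 0 and 1 at passage 74 only, and 0 to 32 and 0 to 28 with libraries left out.

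The PTGS2 log2 fold change between siRNAs in DMSO lay between -0.2299 and -0.0567 with libraries left out. Values near 0 changed sign, none of them past the threshold in either setting, and the cause was not tested. Between siRNAs in 1-AKP, PTGES was 0.1588 at passage 74 only, and PTGES3 was -0.0002 with passage as a covariate, -0.008 at passage 74 only, -0.0018 with library size only and -0.0009 in both limma fits. For the difference of the 1-AKP effects, PTGES2 was -0.0176 at passage 74 only and -0.0117 and -0.0112 in limma, HPGD was 0.0029 with library size only, and PTGR1 was 0.0088 at passage 74 only, 0.0041 with library size only and 0.0256 and 0.025 in limma.

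With libraries left out, log2 fold changes of 1-AKP over DMSO with TUNAR siRNAs ran from -0.6042 to 0.3004 for PTGES and from -0.0087 to 0.184 for HPGD, and with negative siRNA from -0.037 to 0.2181 for HPGD. TUNAR over negative siRNA in 1-AKP ran from -0.8325 to 0.1588 for PTGES, -0.1295 to 0.1454 for PTGES2, -0.0319 to 0.0453 for PTGES3 and -0.088 to 0.0135 for PTGR1. In DMSO it ran from 0.2906 to 1.0167 for PTGES, -0.1435 to 0.0968 for PTGES2, -0.0462 to 0.0101 for PTGES3 and -0.082 to 0.0406 for PTGR1. The difference of the 1-AKP effects ran from -0.0255 to 0.1333 for PTGS2, -0.1083 to 0.1741 for PTGES2, -0.0126 to 0.0468 for PTGES3, -0.1252 to 0.1259 for HPGD and -0.0613 to 0.0477 for PTGR1. PTGES rests on 7.61 to 21.9 counts per library, and PTGS1, PTGER4 and PTGDS on too few to test.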
